A study of Mus musculus with 4 samples.

Results

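The mouse genome names its zinc finger genes by number, and this account follows the genes named Zfp900 to Zfp999. They were taken by symbol alone, but the number range was chosen with earlier results of these data known. Of the 22180 genes that the array read through probe sets of a single symbol, 47 carried such a name. Another 9 genes with such a name were read only by probe sets that name several genes and are described apart, and 6 further RefSeq genes of this number range had no probe set in the array annotation, so that no intensity of theirs was analysed here; those with a RefSeq promoter window are counted among the windows.

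The study compared peritoneal macrophages of 2 inbred mouse strains, 129S6/SvEvTac (129S6) and C57BL/6 (B6), on 4 arrays, 1 for each strain and sex. All mice were wild type, 3 months old and fed regular chow, and each received 1 ml of 4% thioglycolate, an irritant that draws monocytes into the peritoneal cavity. After 4 days the cells were washed out with 10 ml of buffer and kept overnight in culture with 10% serum. Each array held the pooled RNA of 3 mice by the sample labels (the study's methods state a larger pool), so that an array is a pool and not an animal, and the 2 arrays of a strain differ in sex. The p-values below therefore rest on how far the strain difference disagreed between the sexes, joined with a variance prior taken from all genes. They do not measure the spread between mice, or between pools of the same strain and sex.

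Most genes of this naming range encode C2H2 zinc finger proteins, in which a tandem row of zinc fingers reads DNA, and many of them also carry a KRAB domain. The KRAB domain recruits Trim28 and, through it, the histone methyltransferase Setdb1, and the chromatin so marked keeps transposable elements silent. Genes of this kind lie in tandem clusters of recent copies that differ in number and sequence between mouse strains, and the copies are alike enough for a probe to read several of them. Whether each of the 47 genes encodes a KRAB domain was not examined here.

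The promoter windows of the genes on which the results turn are shown first, because the copies resemble each other there and because several of them carry the same short run of bases. Each window is the RefSeq sequence of the C57BL/6J assembly GRCm38.p6 from 250 bases before to 50 bases after a transcription start, written 5′ to 3′ on the strand of the gene. Capitals mark CCAAT or its reverse complement ATTGG, the core of the CCAAT box, and the run CCTGCCAGTCAGA, the longest that the windows of Zfp951, Zfp932 and Zfp966 share. Zfp984 (chr4:147809739-147810038, minus strand), Zfp951 (chr5:104859978-104860277, minus strand) and Zfp932 (chr5:109996260-109996559, plus strand) were the 3 genes with the largest strain difference. Zfp981 (chr4:146514670-146514969, plus strand) had the window most like that of Zfp984, and Zfp966 (chr2:175931051-175931350, minus strand) shares its window base for base with Zfp967.
Zfp984: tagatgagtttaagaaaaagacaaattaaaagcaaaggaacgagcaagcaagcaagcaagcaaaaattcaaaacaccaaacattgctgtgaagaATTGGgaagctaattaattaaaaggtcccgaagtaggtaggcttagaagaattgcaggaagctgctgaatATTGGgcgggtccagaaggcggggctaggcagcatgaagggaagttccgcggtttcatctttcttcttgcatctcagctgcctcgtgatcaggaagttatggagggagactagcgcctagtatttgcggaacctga
Zfp981: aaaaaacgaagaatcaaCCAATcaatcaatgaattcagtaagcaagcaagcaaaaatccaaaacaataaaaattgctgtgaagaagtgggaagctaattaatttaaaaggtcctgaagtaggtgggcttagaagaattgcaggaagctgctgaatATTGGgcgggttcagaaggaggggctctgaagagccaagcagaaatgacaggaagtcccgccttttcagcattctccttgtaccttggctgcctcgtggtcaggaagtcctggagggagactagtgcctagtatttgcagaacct
Zfp951: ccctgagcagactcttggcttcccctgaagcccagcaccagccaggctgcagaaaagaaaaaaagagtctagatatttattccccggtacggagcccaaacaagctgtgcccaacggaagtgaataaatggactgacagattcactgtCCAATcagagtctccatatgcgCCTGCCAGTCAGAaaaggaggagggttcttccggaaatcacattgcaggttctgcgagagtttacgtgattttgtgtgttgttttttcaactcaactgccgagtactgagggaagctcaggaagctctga
Zfp932: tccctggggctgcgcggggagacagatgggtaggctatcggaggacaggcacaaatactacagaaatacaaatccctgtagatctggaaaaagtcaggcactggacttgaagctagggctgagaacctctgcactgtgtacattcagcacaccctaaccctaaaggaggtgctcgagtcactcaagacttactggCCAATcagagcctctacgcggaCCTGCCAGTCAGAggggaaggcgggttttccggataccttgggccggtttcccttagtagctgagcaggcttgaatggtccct
Zfp966: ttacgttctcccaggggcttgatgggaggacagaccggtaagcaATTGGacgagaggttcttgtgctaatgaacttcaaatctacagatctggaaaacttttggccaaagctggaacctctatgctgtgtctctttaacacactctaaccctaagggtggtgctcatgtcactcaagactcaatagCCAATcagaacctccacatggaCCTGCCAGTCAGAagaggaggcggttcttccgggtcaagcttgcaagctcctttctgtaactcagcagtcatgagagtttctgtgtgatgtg

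The windows of Zfp984 and Zfp981 had 248 identical bases over 317 aligned columns (78.2%), and those of Zfp966 and Zfp967 were identical over all 300 bases. RefSeq windows were found for 55 of the genes Zfp900 to Zfp999, and for 43 of the 47 tested. CCAAT or ATTGG was present in 42 of the 55 genes (76.4%), in 48.0% of the other numbered Zfp genes and in 41.1% of all genes with a window. The longer run CCAATCAG contains the CCAAT letters and was sought on either strand. It was present in 21 of the 55 genes (38.2%), in 11.1% of the other numbered Zfp genes and in 4.70% of all genes. The run CCTGCCAGTCAGA was searched for on both strands after the windows had been read side by side. It was defined from the windows of Zfp951, Zfp932 and Zfp966, so these genes and Zfp967, whose window is that of Zfp966, hold it by construction. It was found in 15 of the 55 genes (27.3%), in 0 of the 252 other numbered Zfp genes and in 49 of 27025 genes overall (0.181%). Of the 34 other genes that hold it, 29 have provisional Gm symbols. In 11 of the 15 genes it followed CCAATCAG on the same strand, and the distance between the first bases of the 2 runs was 22 bases in each of their 13 windows. The 15 genes lie on 4 chromosomes, and 8 of them are on chromosome 2. GGGCGG or CCGCCC, the GC box, was present in 20 of the 55 genes (36.4%). It was present in 49.2% of the other numbered Zfp genes and in 38.2% of all genes. TATAAA or TTTATA was present in 0 of the 55 genes, in 9.92% of the other numbered Zfp genes and in 15.7% of all genes. These counts describe letters in a window and show no binding, and near-identical copies are not independent of each other.

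The arrays of one strain correlated at 0.989 (129S6) and 0.988 (B6) over all genes tested and those of different strains at 0.969 to 0.980. Macrophage marker genes gave a summed level of 14.76 to 14.90 log2 units in the 129S6 arrays and 14.45 to 14.49 in the B6 arrays. Of these 9 genes 0 were called by limma and 7 had an unadjusted p below 0.05, from Cd14 at -1.65 to Fcgr1 at 1.72. Fibroblast markers moved with the strain. Their summed level was 11.56 to 11.71 in the 129S6 arrays and 8.88 to 9.55 in the B6 arrays, 6 of the 7 were at least 2-fold lower in B6 in both sexes, and of these Dcn fell by 2.67 and Sparc fell by 2.61 log2 units (limma adjusted p = 0.0395 and 0.0420). Lum, the seventh, lay between 3.68 and 4.05 in all arrays. The eosinophil and macrophage surface gene Siglecf rose by 1.88 in B6 (limma adjusted p = 0.0438). The other eosinophil markers listed, Epx, Prg2 and Ccr3, read 2.61 to 3.47 in all arrays. They differed by 0.30, 0.30 and 0.06, and none was called. None of the T cell, B cell, neutrophil, mast cell and mesothelial markers read was called either. At an unadjusted limma p below 0.05 were 2 of 4 B cell markers, Cd79a (-0.73) and Ms4a1 (-0.64), against 16.3% of all genes. So were 1 of 6 neutrophil markers (Ly6g, -0.50), 1 of 4 mast cell markers (Cpa3, 1.11) and 1 of 5 mesothelial markers (Wt1, -1.06). Of the 3 T cell markers 0 were. The part of these differences in the zinc finger results was not tested, and in RNA from whole cultures fewer cells of a type and less RNA per cell cannot be told apart.

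Macrophages of the 2 strains were more than 2-fold apart in both sexes in 3 of the 47 genes, all higher in B6. Zfp984 differed by 15.7-fold, Zfp951 by 3.11-fold and Zfp932 by 2.68-fold, and the first 2 of them passed the test across all genes. These are ratios of intensities whose 129S6 means lay within the range of Y-linked genes in the female arrays, and they do not give the ratio of RNA amounts. For Zfp984 and Zfp932 the means lay within that range only through Eif2s3y, 1 of the 3 Y-linked genes. No gene of the range passed in the direction of lower B6 expression (0 of 47, against 0.514% of all genes). All values are log2 probe set intensities as deposited, differences are B6 minus 129S6, and a gene was called when the Benjamini-Hochberg adjusted p of limma over all 22180 genes, with strain and sex as terms, was below 0.05. By this rule 2 of the 47 genes were called (4.26%), against 0.852% of all genes in either direction and 0.338% higher in B6.

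Zfp984 read 5.40 in 129S6 females and 3.94 in 129S6 males, and 8.89 in B6 females and 8.39 in B6 males. Both B6 pools lay at least 2.99 log2 units above both 129S6 pools, while the 129S6 pools themselves were 1.46 apart. The strain means were 4.67 ± 1.04 and 8.64 ± 0.35 (SD, n = 2), and the difference was 3.97 ± 0.28 (SE, limma adjusted p = 0.0401). It was 3.48 in females and 4.45 in males. Leaving out 1 pool at a time gave differences of 3.24 to 4.70, in fits that also drop the sex term and take the spread from the other strain and the prior. Testing all 41345 probe sets raised the adjusted p to 0.0982, where no probe set passed. Zfp984 is a C2H2 zinc finger gene of the chromosome 4 cluster.

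Zfp951 read 3.25 and 3.52 in the female and male 129S6 pools and 4.96 and 5.08 in the B6 pools. The groups did not overlap, and the pools of one strain differed by less than 0.3. The difference was 1.64 ± 0.16 (SE, n = 2 pools per strain, limma adjusted p = 0.0487), 1.71 in females and 1.56 in males. The call lies at the threshold. Fits of 3 pools cannot hold a sex term, so they compare with the fit of 4 pools without it (adjusted p = 0.0190). Among them the call was lost without the 129S6 female pool (difference 1.503, adjusted p = 0.0768) and without the B6 male pool (1.58, 0.0508). With all pools it was lost under a robust variance prior (0.0524), after quantile normalization (1.70, 0.0570) and over all probe sets (0.1205). Gbp8, an interferon-induced guanylate-binding protein gene, lies 152 kb from Zfp951 on chromosome 5. It read 3.93 and 3.81 in 129S6 and 7.27 and 6.16 in B6 (limma adjusted p = 0.0524). Abcg3, nearer on the same side at 74.9 kb, differed by 0.38 (0.566). On the other side Gm20385 differed by -0.03 and Thoc2l by 0.11.

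Zfp932 gave 4.799 and 4.44 in the female and male 129S6 pools and 6.21 and 5.88 in the B6 pools. In both sexes the difference was of the same size, 1.41 in females and 1.43 in males. The fitted difference was 1.42 and did not pass (limma adjusted p = 0.0579), although it passed without the sex term (0.0416). The mouse protein Zfp932 and its relative Gm15446 are known to repress endogenous retroviruses of the ERVK type. Gm15446, the neighbouring gene, read 5.82 and 5.83 in the 129S6 pools and 6.21 and 6.15 in the B6 pools and so differed by 0.36 (adjusted p = 0.365).

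**Figure D1:**
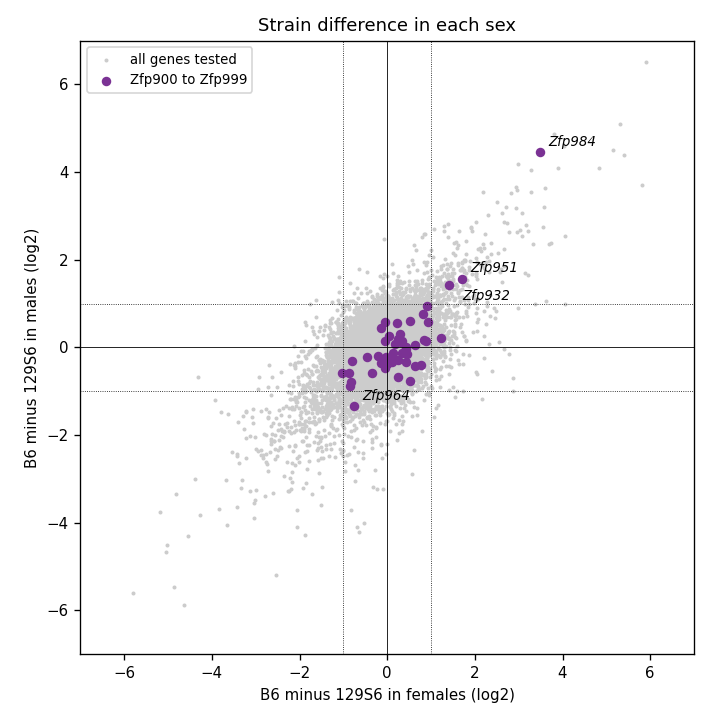
Difference B6 minus 129S6 (log2) in females (horizontal) and in males (vertical) for every gene tested (grey) and the 47 genes Zfp900 to Zfp999 (purple); dotted lines mark 2-fold. Zfp984 (3.48 and 4.45), Zfp951 (1.71 and 1.56) and Zfp932 (1.41 and 1.43) lie past the 2-fold lines in both sexes, and Zfp964 (-0.75 and -1.34) does so in males only.

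Counted without a test, the same 3 genes were those that differed 2-fold or more with the same sign in females and in males (6.38% of the 47, against 2.77% of all genes in either direction, 1.05% higher and 1.72% lower in B6). At 1.5-fold the count was 9, of which 5 were higher and 4 lower in B6 (19.1%, against 7.47% of all genes). Of all genes 3.02% were higher and 4.45% lower by this size. The sign was the same in both sexes in 32 genes (68.1%, against 63.4%). The B6 pools lay wholly above the 129S6 pools in 18 genes (38.3%, against 22.8% of all genes) and wholly below them in 12 (25.5%, against 26.1%). At an unadjusted p below 0.05 there were 14 genes, 7 in each direction (29.8%, against 16.3%). These shares are set beside the background without a test, and neighbouring copies are not independent of each other.

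As a group the 47 genes were not shifted far. Their median difference was 0.13 against -0.02 for all genes, with quartiles of -0.20 and 0.33, and 28 were positive and 19 negative. In females the median was 0.25 and in males -0.13, and without the 129S6 female pool it was -0.08. Of the 289 other numbered Zfp genes 0 were called by limma, 49 had an unadjusted p below 0.05 (17.0%, against 16.3% of all genes), and their median was 0.07. In the 9 other blocks of numbers the block medians ran from 0.01 to 0.15. Only Zfp984 differed by more than 2 log2 units among all 336 numbered Zfp genes tested.

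**Figure D2:**
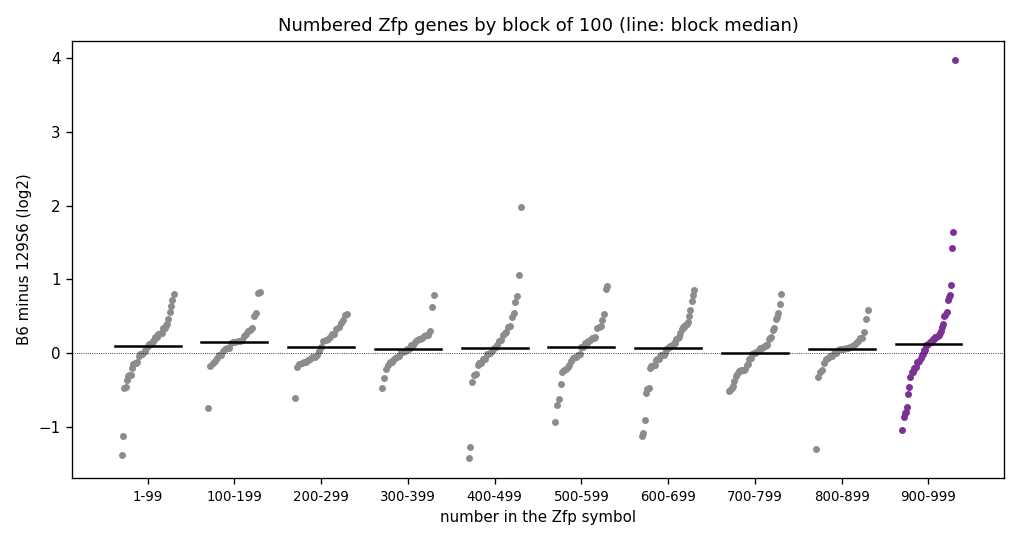
Difference B6 minus 129S6 (log2, vertical) of each numbered Zfp gene, grouped by its number in blocks (horizontal); points are genes in order of value, the black line is the block median and purple marks Zfp900 to Zfp999. The block medians lie between 0.01 and 0.15, and Zfp984 at 3.97 stands above every other gene plotted.

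The genes next in size did not pass, and each is given by its pools in the order 129S6 female, 129S6 male, B6 female, B6 male. Zfp974 read 5.92, 5.90, 6.82 and 6.84, a difference of 0.92 with pools of one strain within 0.03 of each other (limma adjusted p = 0.114). Zfp943 read 6.37, 6.34, 7.19 and 7.09 at the probe set used, a difference of 0.79 (0.142). A second Zfp943 probe set of lower intensity read 4.15, 3.05, 3.34 and 2.91, a difference of -0.48, so that the direction of Zfp943 depended on the probe set. The window of Zfp943 overlaps that of Zfp942 by 194 bases on the opposite strand, and Zfp942 differed by -0.11.

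On the lower side, Zfp964 read 5.37, 5.71, 4.61 and 4.37, a difference of -1.05 (limma adjusted p = 0.144). Zfp994 read 6.60, 6.91, 5.74 and 6.03, with a difference of -0.87 (0.121). Zfp960 read 7.86, 8.17, 7.05 and 7.37, with a difference of -0.81 (0.136). In all 3 genes both B6 pools were below both 129S6 pools. With a variance prior that follows the level, 8 genes of the range were called, and Zfp994 and Zfp960 were among them as lower in B6; the others were Zfp984, Zfp951, Zfp932, Zfp974, Zfp943 and Zfp992. That setting called 1256 genes overall.

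**Figure D3:**
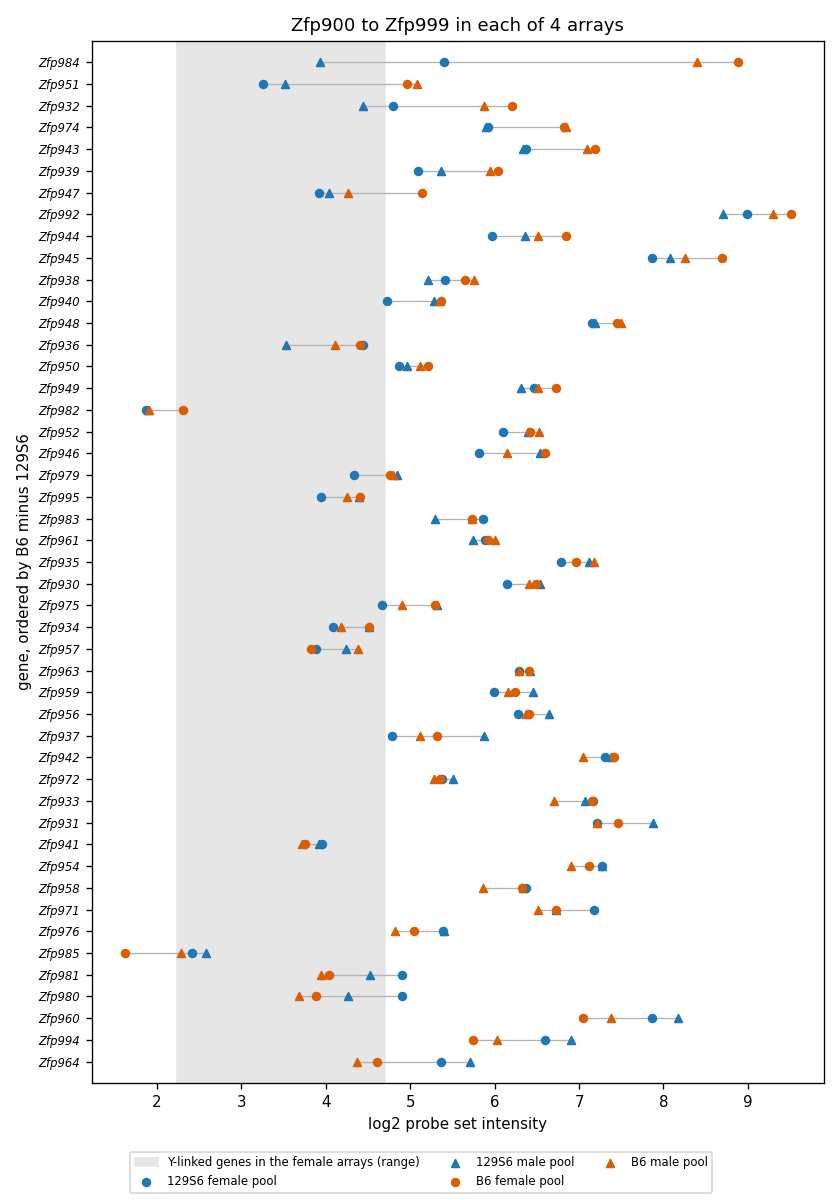
log2 probe set intensity (horizontal) of the 47 genes (vertical, ordered by difference) in each of the 4 pools; circles are female and triangles male pools, blue is 129S6 and orange B6, and the grey band spans 2.24 to 4.71, the range of 3 Y-linked genes in the female arrays. The B6 points of Zfp984, Zfp951 and Zfp932 lie right of the 129S6 points by 3.97, 1.64 and 1.42 on average. Both B6 points lie right of both 129S6 points in 18 of the 47 genes (38.3%, against 22.8% of all genes) and left of them in 12 (25.5%, against 26.1%).

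The female arrays gave a gauge of signal without transcript. The Y-linked genes Kdm5d, Uty and Eif2s3y read 2.24 to 4.71 there. Eif2s3y alone set the upper end (4.30 in 129S6 and 4.71 in B6 females), and Kdm5d and Uty read at most 3.55. In 32 of the 47 genes both strain means were above 4.71, and in 9 (Zfp934, Zfp936, Zfp941, Zfp947, Zfp957, Zfp980, Zfp982, Zfp985 and Zfp995) both were below it. Only the 129S6 mean was below it for Zfp984, Zfp951, Zfp932 and Zfp979, and only the B6 mean for Zfp964 and Zfp981. Each probe set has its own background, so this range is a guide and no detection call. The 3 genes with the largest strain difference thus had 129S6 means inside the range of these 3 Y-linked probe sets and B6 means above it. The 129S6 means of Zfp984 (4.67) and Zfp932 (4.62) were inside it only through Eif2s3y, whereas that of Zfp951 (3.38) was also below the highest Kdm5d reading. The 129S6 female pool of Zfp984 (5.40) was above the whole range. The 4 genes with the highest mean signals were Zfp992 (9.13), Zfp945 (8.22), Zfp960 (7.61) and Zfp931 (7.44), and the lowest were Zfp982 (1.997) and Zfp985 (2.23). These signals belong to different probe sets and do not rank amounts of RNA. The median mean signal of the 47 was 5.89, and that of all genes 5.12.

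The 47 genes fell into 23 runs with less than 2 Mb between neighbours, and 7 of the runs held at least 2 of them. The run of Zfp984 lies on chromosome 4 between 145670697 and 147849126 (GRCm38.p6) and held 8 of the genes. Their differences, in order along the chromosome, were -0.80 (Zfp980), 0.55 (Zfp992), -0.73 (Zfp981), 0.23 (Zfp982), -0.55 (Zfp985), 0.19 (Zfp979), 3.97 (Zfp984) and -0.19 (Zfp933). Of these 8 genes limma called Zfp984 alone. Thus 4 of the 8 were positive and 4 negative, and the run had a median of 0.00 although it holds the gene with the largest difference. These counts include low signals. Both strain means were below 4.71, the upper end of the Y-linked range, for Zfp980, Zfp982 and Zfp985. Only the 129S6 mean was below it for Zfp979 and Zfp984, and only the B6 mean for Zfp981. Zfp981, whose window was most like that of Zfp984, read 4.91 and 4.53 in 129S6 and 4.04 and 3.94 in B6, opposite in direction to Zfp984 (limma adjusted p = 0.173). Zfp933, separated from Zfp984 by 10.8 kb, read 7.16, 7.08, 7.16 and 6.70 in the order given above. The transcribed pseudogene Rps19-ps3, which begins 9.55 kb past the end coordinate of Zfp984, read 7.86, 7.79, 6.81 and 6.92 (-0.96, limma adjusted p = 0.113). The 9 other measured genes inside the run had a median of -0.37, and 0 were called. Gm13238, a transcribed pseudogene, had the largest positive value among them, 1.61 (limma adjusted p = 0.0527). The largest negative value was -1.51, that of the long non-coding RNA gene 4933438K21Rik (0.169).

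**Figure D4:**
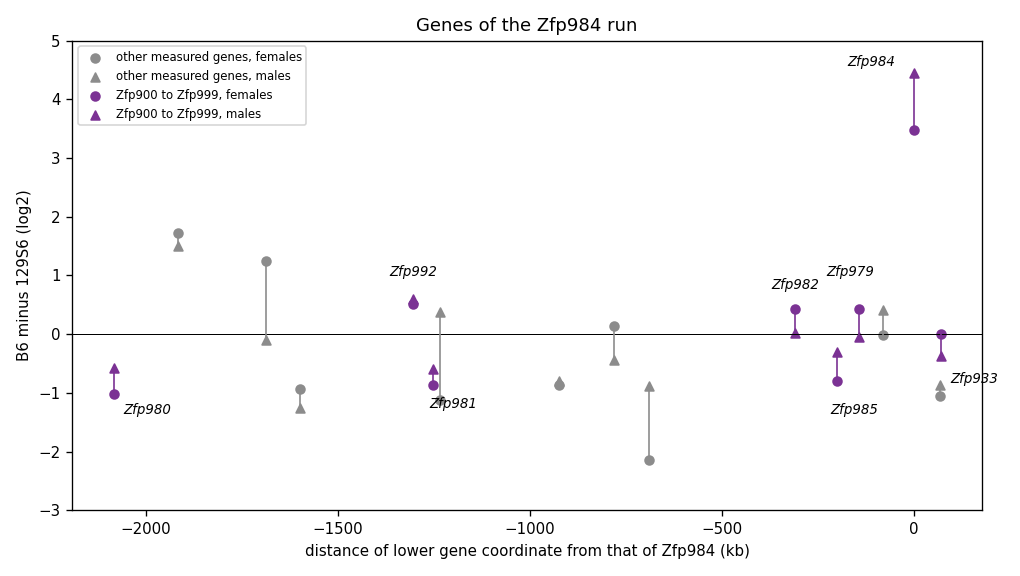
Difference B6 minus 129S6 (log2, vertical) in females (circles) and males (triangles) against the distance of each gene's lower coordinate from that of Zfp984 (kb, horizontal), for the 8 genes Zfp900 to Zfp999 of the chromosome 4 run (purple, named) and the 9 other measured genes in it (grey). Zfp984 lies at 3.48 and 4.45, and the 2 measured genes next to its right are Rps19-ps3 (-1.05 and -0.87) and Zfp933 (0.00 and -0.37).

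The longest run by number was on chromosome 17 (21565816 to 22867309) and held 10 of the genes. Of these 8 were positive and 2 negative, with a median of 0.25, and 0 were called by limma, while 2 had an unadjusted p below 0.05. Zfp943 (0.79) and Zfp947 (0.72) had the largest positive values and Zfp994 (-0.87) the largest negative one. Zfp947 read 3.92, 4.04, 5.14 and 4.26, so that it was 1.22 higher in B6 females but 0.22 higher in B6 males. The 10 other measured genes of the run had a median of 0.04. On chromosome 2 the neighbours Zfp972, Zfp971 and Zfp931 were all negative at -0.12, -0.33 and -0.20. On chromosome 8 Zfp964 at -1.05 lay beside Zfp930 (0.11) and Zfp963 (-0.01), and the zinc finger gene Zfp868 in the same run read 7.89, 7.75, 6.54 and 6.50 (-1.30, limma adjusted p = 0.0643). On chromosome 7 Zfp974 and Zfp940 were both positive (0.92 and 0.35), and Zfp976, Zfp975 and Zfp936 were -0.46, 0.10 and 0.27. Zfp935 and Zfp934 on chromosome 13 were 0.13 and 0.05.

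Genes with and without the shared promoter run spanned overlapping ranges of strain difference. The 8 tested genes whose window holds CCTGCCAGTCAGA had a median difference of 0.17 and a range of -0.46 to 1.64, and the 35 without it a median of 0.15 and a range of -1.05 to 3.97. Zfp951 and Zfp932 hold the run because it was defined from their windows, and both were chosen for their large strain differences. The split is therefore no test of the run, and its upper end of 1.64 is Zfp951 itself. Zfp984 does not hold the run.

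Probe sets that read several genes at once extended the picture to the 9 genes with no probe set of their own. There were 21 of them, 2 with identical values, and their differences ran from -1.63 to 1.49, with 8 positive and 13 negative. On chromosome 4, 1 of the 2 probe sets that name Zfp991 and Zfp993 alone read 8.10 and 7.79 in 129S6 and 9.43 and 9.43 in B6. It was 1.49 higher in B6 and did not pass in the fit over all probe sets (limma adjusted p = 0.133). The other read 6.74, 6.10, 7.23 and 6.85, a difference of 0.62 (0.316). A probe set naming Zfp600, Zfp979, Zfp980, Zfp981 and Rex2 read 8.10, 7.90, 6.70 and 6.03, a difference of -1.63 (0.133). These were the 2 shared probe sets at least 2-fold apart in both sexes, in opposite directions, in the neighbourhood of Zfp984. The shared probe sets of the chromosome 2 copies, such as Zfp965, Zfp966, Zfp967, Zfp968 and Zfp970, lay between -0.46 and 0.06, and none was 2-fold apart. Which of the named genes a shared probe set reads cannot be told apart.

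No gene of the range passed the test between the sexes. Of the 47, 0 were called between males and females (smallest limma adjusted p = 0.860; 0.0135% of all genes were called), and 3 had an unadjusted p below 0.05 (6.38%, against 5.22%). The male minus female values ran from -0.98, for Zfp984, to 0.45. The strain difference had opposite signs in the sexes in 15 genes, and Zfp937 was the only one of them with at least 0.5 each way. It read 4.79 in 129S6 females, 5.88 in 129S6 males, 5.32 in B6 females and 5.12 in B6 males, so that B6 was 0.53 above 129S6 in females and 0.76 below it in males. With 1 array for each strain and sex this could not be tested.

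The partners through which KRAB zinc finger proteins act were measured in the same arrays. Of 24 corepressor genes read, 0 were called by limma and 5 had an unadjusted p below 0.05 (20.8%, against 16.3% of all genes), and their median difference was 0.19. Trim28, the scaffold that binds the KRAB domain, read 9.54 and 9.53 in the 129S6 pools and 9.39 and 9.30 in the B6 pools and so differed by -0.19 (adjusted p = 0.602). Setdb1, which writes the repressive histone mark, differed by -0.01. The 3 largest values were those of Dnmt3a, a de novo DNA methyltransferase (0.97, adjusted p = 0.120), Uhrf1, which guides maintenance methylation (-0.97, 0.167), and Chd3, a remodelling enzyme (0.64, 0.192). Of 13 further zinc finger genes listed for their known targets 0 were called by limma and 3 had an unadjusted p below 0.05 (23.1%, against the same 16.3%), among them Zfp30 (-1.39, adjusted p = 0.0628) and Zfp600 (-1.09, 0.106). Zfp809, known in mice to silence murine leukaemia viruses, differed by -0.25 (0.503).

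**Figure D5:**
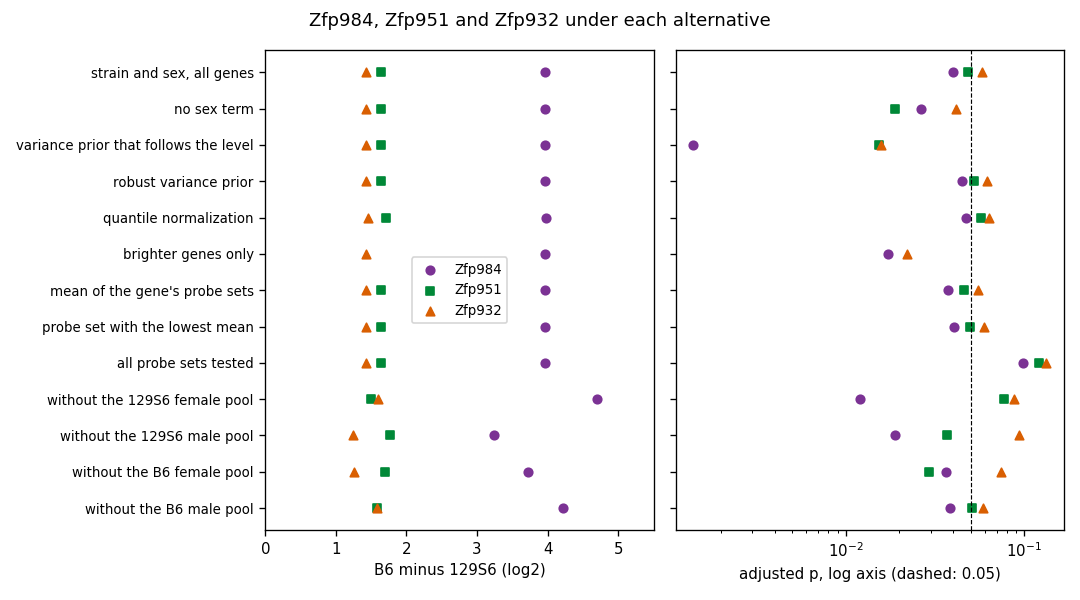
Difference B6 minus 129S6 (log2, left) and limma adjusted p (right, log axis, dashed line at 0.05) of Zfp984, Zfp951 and Zfp932 under each processing alternative (rows). The differences stay between 3.24 and 4.70, 1.503 and 1.77, and 1.24 and 1.60, and the adjusted p of each of the 3 genes falls on both sides of 0.05, for Zfp984 only over all probe sets (0.0982).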

How the data were processed

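RNA of thioglycolate-elicited peritoneal macrophages was hybridized to Affymetrix gene arrays, 1 per strain and sex. The authors deposited log2 probe set intensities made with Affymetrix Expression Console; its version, summarization and background correction are not given in the sources used here. The values ran from 0.79 to 13.81 with array medians of 4.85 to 4.87, and no further normalization was applied. All 4 sample columns were used.

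Of 41345 probe sets, 25341 are listed in the array annotation, 23521 of them with 1 symbol and 1820 with several, and 16004 are unnamed here; 23328 matched RefSeq. Each gene was read at its single-symbol probe set of highest mean (1082 genes had several). Strain and sex were fitted together with limma 3.58.1 in R 4.3.3 (1 residual degree of freedom beside a prior of 3.18), with Benjamini-Hochberg adjustment over 22180 genes; an interaction could not be fitted. Strain variants under the probes were not examined, and the number of arrays limits the precision. The fit was tested on simulated data. Promoter windows were aligned globally with Biopython 1.88.

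Named genes were those called, those 2-fold apart in both sexes, the 4 highest and 2 lowest signals, the 3 largest differences on each side that did not pass, opposite signs in the sexes of at least 0.5 each way, probe sets of a gene that differ in direction, all members of a run with a called gene, and the called and 3 largest corepressors; genes named beyond this were chosen after their values were seen. The members and lists were chosen with earlier results of these data known. The alternatives were the model without sex, 2 other variance priors, quantile normalization, the brighter genes only, other probe set rules, all probe sets, a smaller fold size and each array left out.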

Additional observations from a re-analysis of the deposited data

Results flagged for a closer look

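Zfp937 was singled out because its strain difference ran one way in females and the other in males. B6 minus 129S6 was 0.53 in females and -0.76 in males on the log2 scale, and the difference between the sexes was not tested, since there was 1 pool for each strain and sex. A second Zfp937 probe set of lower intensity gave 0.11 in females and -0.49 in males.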

How the results depend on the processing

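The number of genes of the range called by limma was 2. It was 8 with a variance prior that follows the level (6 higher and 2 lower in B6), 5 among the 32 members brighter than the median gene (2 of them lower), 1 with a robust prior, 1 after quantile normalization and 0 over all probe sets, where more features were tested; it was 3 without the sex term. Leaving out 1 pool, which also drops the sex term, gave 1 to 2, all higher in B6. Over all genes the calls numbered 189, and under the alternatives 431 (no sex term), 1256 (level-following prior), 81 (quantile), 589 (brighter genes) and 0 of 41345 probe sets (5707 at an unadjusted p below 0.05), with 84 to 564 on leaving out a pool. The corepressor count of 0 became 2 with the level-following prior and 1 among brighter genes. With 1.5-fold as the size, 9 members rather than 3 differed in both sexes. The sign of 5 single-gene values turned, the cause not tested. Zfp943 was -0.48 at its dimmer probe set. On leaving out a pool, Zfp979 ran from -0.065 (without the 129S6 female pool) to 0.45, Zfp933 from -0.42 to 0.0395 (without the B6 male pool), and Zfp931 from -0.54 to 0.13 and Zfp937 from -0.66 to 0.43 (both positive without the 129S6 male pool). The median of the members was -0.08 to 0.23 on leaving out a pool, negative without the 129S6 female pool, and that of all genes (-0.018) was 0.0157 after quantile normalization and 0.0107 among brighter genes. The labels number no replicates, so pools could be matched across the strains only by sex, which is already a term of the fit. With 2 pools per strain the fit had 1 residual degree of freedom, fewer than its variance prior.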
